A study of Mus musculus with 4 samples.

Results

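The genes described here carry the provisional mouse symbols Gm followed by a number, or a RIKEN clone name ending in Rik, and had at least 300 UMIs summed over all barcodes of the 4 libraries. The UMI, a short random tag added to each captured transcript, lets copies made in amplification be counted as 1 molecule. Of 27998 gene identifiers, 7530 carried such a symbol, 2367 of them had at least 1 UMI, and 255 reached the threshold, 89 with a Gm symbol and 166 with a Rik symbol. D630023F18Rik and 1700007K13Rik were left out by the rule. The members were thus chosen by their symbols and by UMIs summed over all 4 libraries. A gene that was high in 1 library passed more easily, and the size of the group is a description. Gm29367 with 301 UMIs and B430306N03Rik with 302 UMIs lay just inside the threshold. Gm20604 and Gm21975, each with 299 UMIs, lay just outside it.

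The study profiled microglia, the resident macrophages of the brain, from C57BL/6 mice by droplet single-cell RNA sequencing, and asked whether the cells respond alike or fall into distinct populations. The irradiated mice received a single whole-brain dose of 8 Gy at postnatal day 21 and were sampled at 6 h or 1 week, and sham mice without a dose were sampled at the same 2 times. For each of the 4 groups the cells of 4 mice were pooled into 1 library. No difference given here therefore has a replicate check, and none has a test. The labels name the brain as the source and the design text the hippocampus, so the region taken is not settled.

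The library irradiated at 6 h held 1907 microglia-like cells, its sham 2624, the library irradiated at 1 week 2139 and its sham 1576, with median depths of 3437 to 3594 UMIs per cell. All 9 microglia markers were above 0 in each library, and their summed level was 41530 CPM (UMIs scaled to a total of 1000000 in each library) in irradiated and 51450 CPM in sham microglia at 6 h. The 6 markers of dividing cells summed to 14.4 CPM in irradiated and 53.4 CPM in sham microglia at 6 h, and to 114 CPM in irradiated and 14.5 CPM in sham at 1 week, with none at 0. The 6 astrocyte markers summed to 249 CPM in irradiated and 146 CPM in sham microglia at 6 h, with 1 of them at 0 in each. A different cluster was the largest in each of the 4 libraries, and Gm26870 itself was among the leading genes of the cluster that held most cells irradiated at 1 week. The part of any of these in the results below was not tested. Pairs of libraries shared between 4 and 12 cell barcodes.

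Gm and Rik are placeholders, given to a predicted or cloned transcript until a gene earns a name. Such genes comprise protein-coding genes of unstudied function, long noncoding RNAs, transcripts that run antisense to a known gene, and pseudogenes, which are often spliced messenger RNAs copied back into the genome. Long noncoding RNAs and antisense transcripts can act on neighbouring genes, and processed pseudogenes resemble their parent gene so closely that short reads are hard to assign. The name uncharacterised holds only in part for the 255 genes. In the GENCODE vM21 annotation of GRCm38 (mm10), 170 were protein coding, 45 long noncoding, 25 antisense and 13 pseudogenes, and 2 were not matched. In the same annotation 48 already bore another name, among them Rtraf (2700060E02Rik), Atp5mpl (2010107E04Rik), a subunit of mitochondrial ATP synthase, and C9orf72 (3110043O21Rik), whose human counterpart carries the repeat expansion of familial amyotrophic lateral sclerosis. A transcript of 25 members was at least 95% identical over at least 90% of its length to a named coding gene, and these are called copies below.

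The 255 genes took 1.20% of UMIs (exact 95% interval 1.19 to 1.20%, counting error only) in irradiated and 1.07% (1.07 to 1.08%) in sham microglia at 6 h. At 1 week they took 1.00% (0.994 to 1.01%) in irradiated and 1.02% (1.01 to 1.03%) in sham microglia. The Rik genes took nearly equal shares of 0.627% in irradiated and 0.641% in sham at 6 h, and 0.657% in irradiated and 0.635% in sham at 1 week. The Gm genes ranged more widely, with 0.569% in irradiated and 0.433% in sham at 6 h, and 0.344% in irradiated and 0.384% in sham at 1 week.

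A gene was called higher or lower from a 1.5-fold ratio of CPM over the microglia-like cells, and all 255 had the 50 UMIs over both libraries that a comparison required. Either way this called 46 members at 6 h, 23 members at 1 week and 36 from sham to sham, beside 17.9%, 7.12% and 7.71% of all genes measured. At 6 h, 35 members (13.7%) were at least 1.5-fold higher in irradiated than in sham microglia and 11 (4.31%) at least 1.5-fold lower, where 8.92% and 8.99% of the 9879 genes measured were called. At 1 week, 11 members (4.31%) were higher and 12 (4.71%) lower, against 3.99% and 3.13% of 9506 genes. Between the sham libraries, 15 members (5.88%) were higher at 1 week than at 6 h and 21 (8.24%) lower, against 2.93% and 4.78% of 9706 genes. Genes of the background needed 50 UMIs and members 300, so the shares are not on an equal footing. At 6 h the median log2 fold of the members was -0.0050, at 1 week 0.027 and from sham to sham -0.066, and that of all genes measured was -0.057, 0.035 and -0.049. In none of the 3 comparisons did 177 of the 255 genes pass 1.5-fold.

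**Figure D1:**
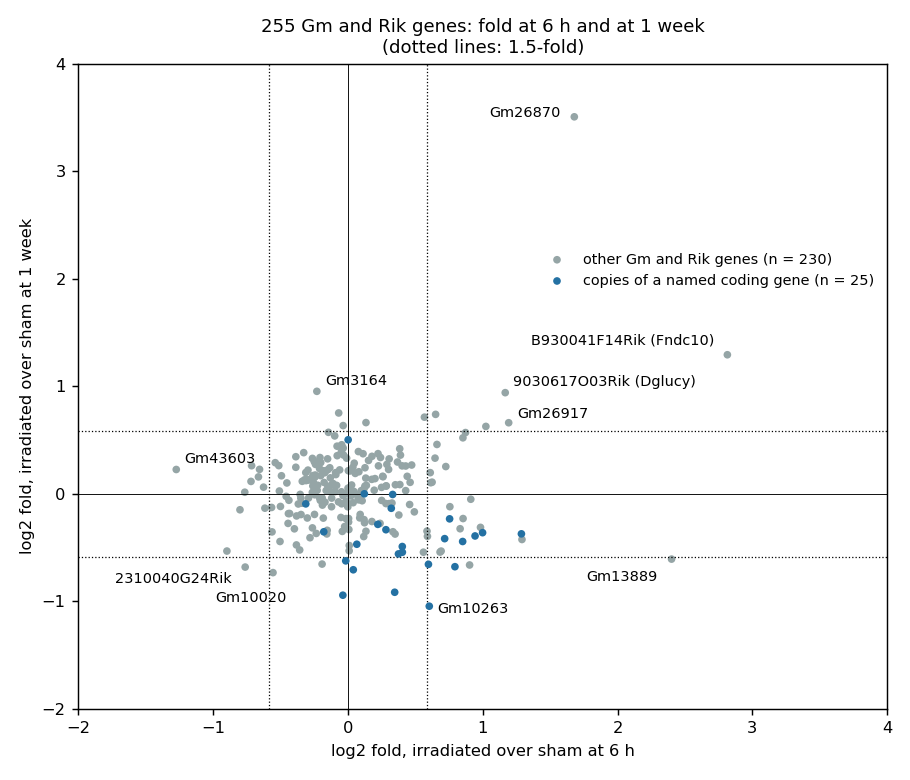
Log2 fold of CPM, irradiated over sham, for the 255 Gm and Rik genes at 6 h (horizontal axis) and at 1 week (vertical axis); each point is 1 gene, dotted lines mark 1.5-fold, and the 25 copies of a named coding gene are blue. Gm26870 stands apart at 1.68 and 3.51, B930041F14Rik (Fndc10) at 2.81 and 1.29, and the copies lie mostly to the right of 0 and below 0.

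Since 15 and 21 members also differed between the sham libraries, each irradiated library was set against both. At 6 h, 26 members lay at least 1.5-fold above both sham libraries and 6 below both, where 5.58% and 5.75% of 9394 genes did. At 1 week, 5 lay above both and 9 below both, where 1.29% and 1.20% of the genes did. At both times 3 members lay above both sham libraries, namely Gm26870, B930041F14Rik and 9030617O03Rik, against 0.639% of all genes. Only 2310040G24Rik lay below both at both times, against 0.319% of all genes. In opposite directions at the 2 times, 5 members passed 1.5-fold over the sham library of the same time, against 1.16% of the 9427 genes measured at both.

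Gm26870 had the largest fold of the 255 genes at 1 week. It had 35.8 CPM (257 UMIs) in irradiated and 11.2 CPM (108 UMIs) in sham microglia at 6 h, and 119 CPM (912 UMIs) in irradiated and 10.4 CPM (59 UMIs) in sham microglia at 1 week. Both sham libraries were thus low and alike, and the later irradiated library was the highest. The log2 fold was 1.68 (exact conditional 95% interval 1.35 to 2.02) at 6 h and 3.51 (3.13 to 3.91) at 1 week, and -0.10 (-0.58 to 0.37) between the sham libraries. These intervals and those below cover counting error only.

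The gene is annotated as a long intergenic noncoding RNA at chr9:3000282-3038313 on the minus strand, at the start of the assembled chromosome. Its transcripts are a tandem repeat. Shifted by 234 bases, its 3 transcripts were 95.9%, 81.5% and 78.3% identical to themselves. The best self-match at any shift of 50 to 300 bases had a median identity of 30.7% over the 229 members with a transcript of at least 600 bases and reached 55.9% in the next member. The period and the A and T rich composition, with 35.6 to 36.2% G and C, are those known of the mouse major satellite, the repeat of pericentromeric heterochromatin. The first units of 1 transcript are shown so that the repeat can be seen, and where along the transcripts the reads fell is not known from the counts. They were read from the GENCODE transcript on GRCm38, minus strand, with unit 1 at chr9:3038080-3038313 and unit 2 at chr9:3037846-3038079, and capitals mark the 17 bases at which they differ.
Gm26870 unit 1: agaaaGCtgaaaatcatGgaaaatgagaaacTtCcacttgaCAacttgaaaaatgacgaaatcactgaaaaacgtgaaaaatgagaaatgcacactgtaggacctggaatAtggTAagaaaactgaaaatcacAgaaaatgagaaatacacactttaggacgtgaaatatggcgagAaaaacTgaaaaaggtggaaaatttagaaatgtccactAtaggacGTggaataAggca
Gm26870 unit 2: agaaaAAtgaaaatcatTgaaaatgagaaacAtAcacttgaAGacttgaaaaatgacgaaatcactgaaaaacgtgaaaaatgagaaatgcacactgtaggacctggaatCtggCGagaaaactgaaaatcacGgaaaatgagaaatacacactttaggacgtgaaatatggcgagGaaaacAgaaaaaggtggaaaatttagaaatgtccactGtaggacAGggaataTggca

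The transcript was seen in few cells, and some of these held many UMIs. A UMI of Gm26870 was found in 105 of 1907 cells (5.51%) irradiated at 6 h and 54 of 2624 (2.06%) of its sham, and in 219 of 2139 (10.2%) irradiated at 1 week and 34 of 1576 (2.16%) of its sham. With every cell thinned to 2000 UMIs the shares were 3.66% (95% interval 2.85 to 4.62%) in irradiated and 1.18% (0.798 to 1.68%) in sham at 6 h, and 8.35% (7.18 to 9.63%) in irradiated and 1.66% (1.05 to 2.48%) in sham at 1 week. In the unnamed cluster with neural genes, a UMI of Gm26870 was found in 8 of 67 cells irradiated at 6 h (11.9%, median depth 1664 UMIs). The microglia-like cells of that library had the share of 5.51% given above, at a median depth of 3554 UMIs. The microglial gene P2ry12 had a UMI in 58 of the 90 cells of the unnamed cluster over the 4 libraries (64.4%). A part from free microglial RNA was not tested. Of the cells with a UMI, 48 of 105 irradiated and 18 of 54 sham cells at 6 h held 2 or more, and 151 of 219 irradiated and 14 of 34 sham cells at 1 week. Cells with 5 or more UMIs made up 0.367% in irradiated and 0.114% in sham at 6 h, and 3.18% in irradiated and 0.0635% in sham at 1 week, and 1 cell held up to 34 UMIs. The variance over cells was 7.80 times the mean in irradiated and 7.496 times in sham microglia at 6 h, and 8.05 times in irradiated and 2.32 times in sham microglia at 1 week. The counting intervals are therefore too narrow for this gene. At 1 week the level lay between 36.0 and 141 CPM in the 7 clusters with at least 50 irradiated cells. In the 5 such clusters of sham cells it lay between 7.26 and 14.6 CPM, below each of the irradiated ones. Counts were low, with as few as 8 UMIs in an irradiated cluster of 62 cells, and 5 to 20 UMIs in the sham clusters. Clusters of the same library are not repeats. At 6 h the ranges overlapped, with 19.1 to 60 CPM in 5 irradiated and 6.29 to 28.2 CPM in 7 sham clusters.

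Cdkn1a, the cell cycle inhibitor p21 that p53 induces after DNA damage, was seen in most irradiated cells with or without Gm26870. After thinning, a UMI of Cdkn1a was seen in 87.1% of the 170 irradiated cells with Gm26870 at 1 week and in 84.9% of the 1867 without it, and at 6 h in 95.6% of 68 and 95.4% of 1789 irradiated cells. In sham cells the shares were 17.4% of the 23 with Gm26870 and 5.87% of the 1364 without it at 1 week, and 6.67% of 30 and 5.54% of 2510 at 6 h, with few sham cells holding the transcript. The 9 Gm genes annotated on the opposite strand of the same interval summed to 7 UMIs in irradiated and 13 in sham at 6 h, and to 8 in irradiated and 2 in sham at 1 week. As the repeat occurs at many places, reads of this gene may come from other copies of the satellite, and the counts are uncertain as to locus.

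**Figure D2:**
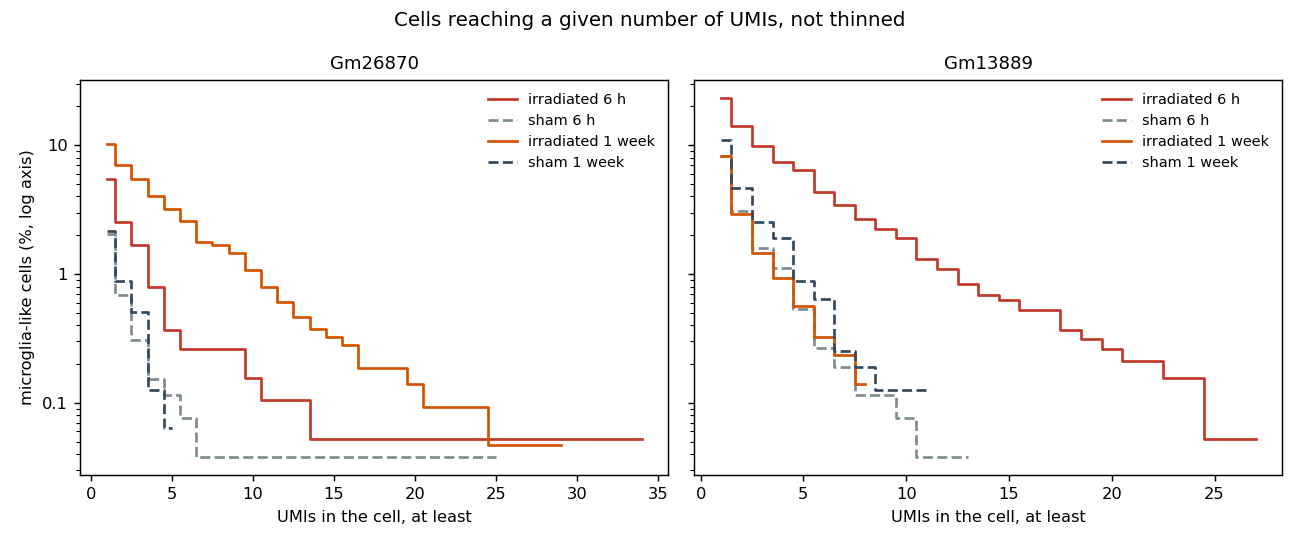
Share of microglia-like cells (percent, log axis) that reached at least the number of UMIs on the horizontal axis, for Gm26870 (left) and Gm13889 (right), with solid lines for irradiated and dashed lines for sham libraries. For Gm26870, 10.2% of cells irradiated at 1 week had a UMI and 3.18% had 5 or more; for Gm13889, 23.4% of cells irradiated at 6 h had a UMI and 6.40% had 5 or more.

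B930041F14Rik is a protein-coding gene at chr4:155694342-155696481 on the plus strand, since named Fndc10 for its fibronectin type III domain. It had 32.1 CPM (230 UMIs) in irradiated and 4.56 CPM (44 UMIs) in sham microglia at 6 h, and 13.01 CPM (100 UMIs) in irradiated and 5.31 CPM (30 UMIs) in sham microglia at 1 week. The log2 fold was 2.81 (2.34 to 3.31) at 6 h, the largest of the 255 genes at that time, and 1.29 (0.69 to 1.93) at 1 week. Unlike Gm26870 it was spread over cells, with at most 4 UMIs in a cell. After thinning, 5.92% (4.89 to 7.10%) of irradiated and 0.945% (0.606 to 1.40%) of sham cells had a UMI at 6 h, and 2.50% (1.87 to 3.28%) of irradiated and 0.937% (0.500 to 1.597%) of sham cells at 1 week. In the unnamed cluster 2 of 67 cells irradiated at 6 h had a UMI of it (2.99%).

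9030617O03Rik, at chr12:100779057-100896981 on the plus strand, is Dglucy, which encodes D-glutamate cyclase. It had 48.4 CPM in irradiated and 21.5 CPM in sham microglia at 6 h, and 38.4 CPM in irradiated and 20 CPM in sham microglia at 1 week. The log2 folds were 1.17 (0.91 to 1.42) and 0.94 (0.62 to 1.27). Its level at 6 h was 32.4 to 90.7 CPM in the 5 clusters with at least 50 irradiated cells, against 17.2 to 25.1 CPM in 7 clusters of sham cells. Counts were low in small clusters, with 21 UMIs in the 59 irradiated cells at 90.7 CPM and 5 UMIs in a sham cluster of 57 cells. At 1 week the ranges overlapped, with 20 to 42.5 CPM in irradiated and 7.48 to 29.2 CPM in sham clusters.

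At both times 2310057M21Rik, Gm26740 and Gm26917 also passed 1.5-fold against the sham of the same time, and Gm26917 is described below with its neighbour. 2310057M21Rik, a coding gene on chromosome 7, had 20.6 CPM in irradiated and 10.2 CPM in sham microglia at 6 h, and 13.7 CPM in irradiated and 8.85 CPM in sham microglia at 1 week. Gm26740, annotated antisense to Gm26581, H60b and Raet1e on chromosome 10, had 79.2 CPM in irradiated and 50.5 CPM in sham at 6 h, and 71.2 CPM in irradiated and 42.6 CPM in sham at 1 week. H60b and Raet1e encode ligands of the natural killer receptor NKG2D. The log2 folds were 1.02 and 0.63 for 2310057M21Rik, and 0.65 and 0.74 for Gm26740. Over the sham library at 6 h the log2 folds at 1 week were 0.43 and 0.50, under 1.5-fold.

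2310040G24Rik, a long noncoding RNA on chromosome 6, was the one member at least 1.5-fold lower at both times. It had 18.3 CPM in irradiated and 31.0 CPM in sham microglia at 6 h, and 18.9 CPM in irradiated and 30.3 CPM in sham microglia at 1 week. The sham libraries were alike, as were the irradiated ones, and the log2 folds were -0.76 (-1.07 to -0.46) and -0.68 (-1.01 to -0.35). Beside it on the same strand, 2 noncoding genes of low level, A430078I02Rik and Gm43936, had log2 folds of -1.08 (-1.965 to -0.22) and -0.99 (-1.74 to -0.27) at 1 week. They had 2.60 and 3.64 CPM in irradiated and 5.49 and 7.26 CPM in sham microglia, and neither was measured at 6 h. The other measured genes within 50000 bases, Pcbp1, C87436, Tia1 and 1600020E01Rik, had log2 folds of -0.14, -0.20, 0.10 and -0.03 at 1 week. Elsewhere, Gm29291 and Gm26526 passed 1.5-fold at 1 time each and were just under it at the other. Their log2 folds were -0.90 and -0.56 at 6 h, and -0.53 and -0.73 at 1 week.

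**Figure D3:**
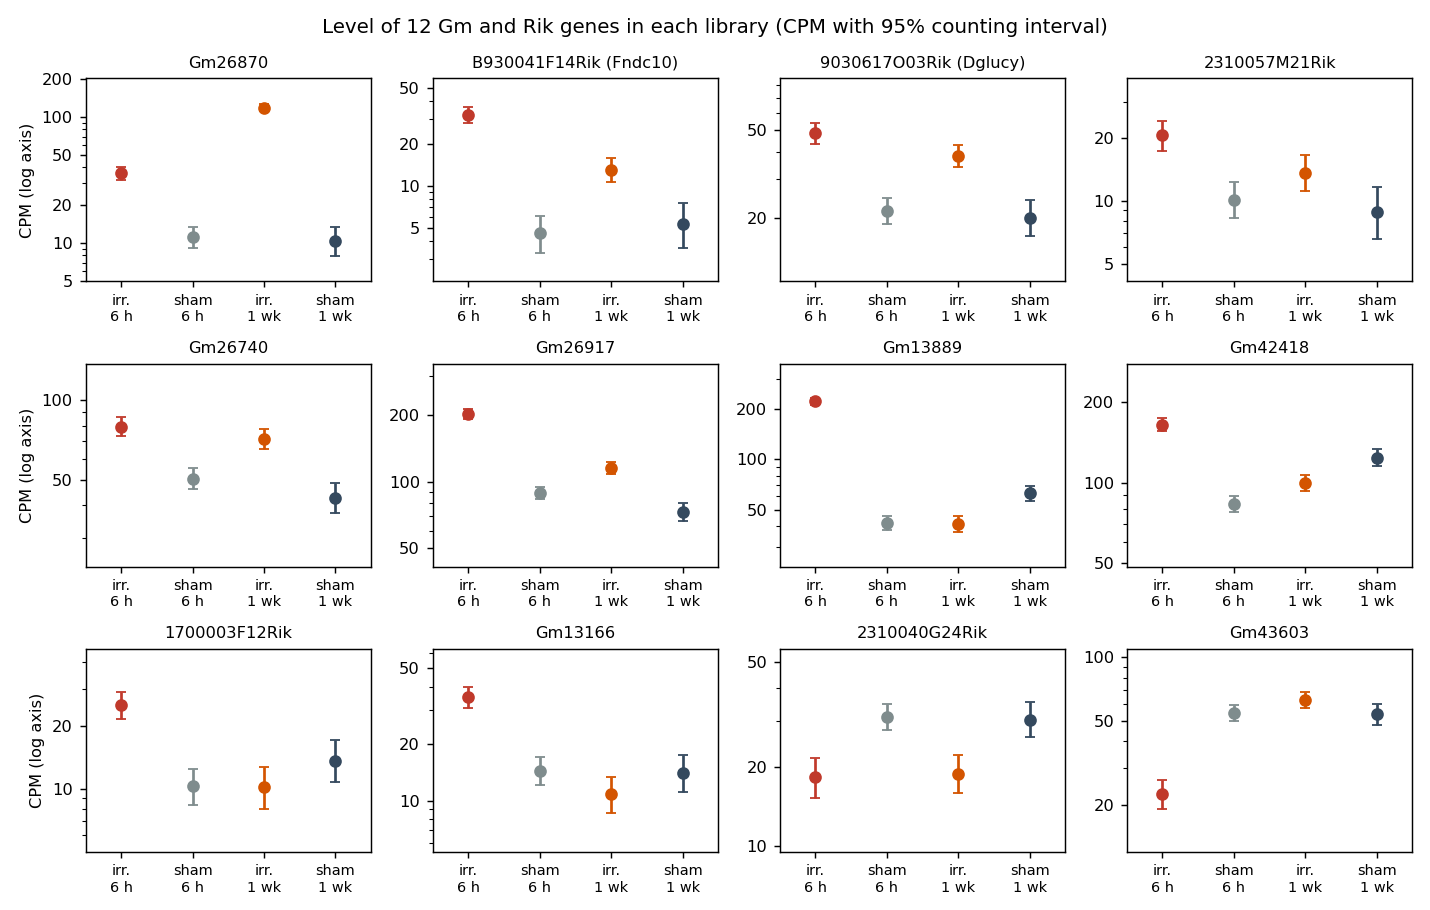
CPM (log axis) of 12 Gm and Rik genes in each library, left to right irradiated and sham at 6 h, then irradiated and sham at 1 week; bars are the exact 95% interval for counting error, and each point is 1 library. Gm26870, Fndc10 and Dglucy are above both sham libraries at both times, Gm13889, 1700003F12Rik and Gm13166 at 6 h, and 2310040G24Rik is below both at both times.

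Gm13889 was the other large difference at 6 h, and it was unevenly distributed. The annotation lists it as a protein-coding gene at chr2:93955810-93957201 on the minus strand. It had 221 CPM in irradiated and 41.9 CPM in sham microglia at 6 h, a log2 fold of 2.40 (2.24 to 2.56). At 1 week the direction was the opposite, with 41.1 CPM in irradiated and 62.6 CPM in sham microglia and a log2 fold of -0.61 (-0.83 to -0.38), which was -0.03 over the sham library at 6 h. The variance over cells was 6.98 times the mean in irradiated and 3.17 times in sham microglia at 6 h. At 1 week it was 2.865 times in irradiated and 3.31 times in sham microglia, so the counting intervals are too narrow for Gm13889 as well. After thinning, 18.0% (16.3 to 19.9%) of irradiated and 6.22% (5.31 to 7.23%) of sham cells had a UMI at 6 h, and 5.25% (4.32 to 6.31%) of irradiated and 7.64% (6.30 to 9.17%) of sham cells at 1 week. Before thinning the share irradiated at 6 h was 23.4%, and in the unnamed cluster 16 of 67 cells of that library (23.9%, median depth 1664 UMIs) had a UMI of Gm13889, so a part from free RNA was not tested.

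Most of the Gm13889 at 6 h lay in 1 cluster. Its 487 irradiated cells, led by Gdf15, Gas2l3, Rab7b, Maff and Ccl4, held 1226 of the 1585 UMIs of that library (77.4%), at 603 CPM with a UMI in 52.0% of cells. Every other cluster with at least 50 irradiated cells had at most 71.1 CPM. In sham cells at 6 h the clusters ranged from 9.14 to 75.4 CPM. The clusters were built on these same cells, so these values describe the distribution. The share of cells with Cdkn1a had no common order at the 2 times. At 6 h it was 90.8% of 335 irradiated cells with a UMI of Gm13889 and 96.4% of 1522 without, and at 1 week 90.65% of 107 with and 84.8% of 1930 without.

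The other members above both sham libraries at 6 h with the largest folds were 1700003F12Rik and Gm13166. 1700003F12Rik, a coding gene on chromosome 2, had 25.1 CPM in irradiated and 10.3 CPM in sham microglia at 6 h, but 10.1 CPM in irradiated and 13.6 CPM in sham at 1 week. Gm13166, a noncoding RNA on chromosome 4 that shares sequence with the zinc finger gene Zfp991, had 35.1 CPM in irradiated and 14.4 CPM in sham at 6 h, and 10.8 CPM in irradiated and 13.98 CPM in sham at 1 week. Both had a log2 fold of 1.29 at 6 h, and -0.43 and -0.37 at 1 week. C9orf72 (3110043O21Rik), named here after its values were seen, had 30.4 CPM in irradiated and 16.2 CPM in sham microglia at 6 h, a log2 fold of 0.91 (0.61 to 1.22). At 1 week it had 16.9 CPM in irradiated and 17.5 CPM in sham microglia.

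Gm26917 and Gm42418 lie side by side on the plus strand, at chr17:39843013-39846341 and chr17:39846958-39848788, and RefSeq lists Rn18s-rs5, a name for a sequence related to 18S ribosomal RNA, as a synonym of Gm42418. Gm26917 had 203 CPM in irradiated and 88.9 CPM in sham microglia at 6 h, and 115 CPM in irradiated and 72.9 CPM in sham at 1 week. Gm42418 had 165 CPM in irradiated and 83.5 CPM in sham microglia at 6 h, and 100 CPM in irradiated and 124 CPM in sham at 1 week. Their log2 folds were 1.19 and 0.98 at 6 h, 0.66 and -0.31 at 1 week, and from sham to sham -0.29 and 0.58, so the neighbours had opposite signs outside the first comparison. AY036118, which is no member and lies on the opposite strand within Gm42418, followed Gm42418 with log2 folds of 1.43, -1.14 and 1.43. With all deposited barcodes summed, their log2 folds at 6 h were 1.34 for Gm26917 and 1.12 for Gm42418.

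Among members lower at 6 h, Gm43603 had the largest fold. It had 22.6 CPM in irradiated and 54.6 CPM in sham microglia at 6 h, and 62.7 CPM in irradiated and 53.6 CPM in sham at 1 week, so the irradiated library at 6 h stood alone. The log2 fold was -1.27 (-1.54 to -1.02). The transcript runs antisense through Bank1, a scaffold protein of B cell receptor signalling, on chromosome 3. Bank1 had 27.7 CPM in irradiated and 73.6 CPM in sham microglia at 6 h, a log2 fold of -1.41 (-1.64 to -1.18). The 5 B cell markers summed to 39.9 CPM in irradiated and 89.7 CPM in sham microglia at 6 h, with 1 of them at 0 in irradiated and 2 in sham, and to 67.9 CPM in irradiated and 74.9 CPM in sham at 1 week. Their part in the result was not tested. The strand setting of the counting is not given in the sources used here, so reads of overlapping genes may not be told apart.

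The remaining members lower at 6 h were smaller in fold. Fmc1 (1110001J03Rik), an assembly factor of mitochondrial ATP synthase, had 12.5 CPM in irradiated and 21.9 CPM in sham microglia, and Dele1 (0610009O20Rik), a relay of mitochondrial stress, had 30.1 CPM in irradiated and 49.4 CPM in sham microglia. 0610040J01Rik, a coding gene on chromosome 5, had 118 CPM in irradiated and 182 CPM in sham microglia, and 187 CPM in irradiated and 179 CPM in sham at 1 week. Gm29291, Gm17354, B130006D01Rik, P2ry10b (A630033H20Rik) and 9430038I01Rik had log2 folds of -0.90 to -0.66. Gm26778, which lies opposite Kctd12, had 11.2 CPM in irradiated and 17.1 CPM in sham microglia and is named here after its values were seen. The 6 members below both sham libraries at 6 h were Gm43603, Gm17354, Gm26778, Fmc1, 0610040J01Rik and 2310040G24Rik.

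At 1 week, calls of several further members held against both sham libraries and those of others against 1 of them. Gm26759, antisense to Irf2bp2 on chromosome 8, had 13.9 CPM in irradiated and 8.49 CPM in sham microglia, a log2 fold of 0.71 (0.21 to 1.24), and lay above both sham libraries. Bclaf3 (A830080D01Rik) had 16.5 CPM in irradiated and 10.4 CPM in sham microglia, but 16.3 CPM in the sham library at 6 h. For Gm15523 and 6030458C11Rik the log2 folds of 0.75 and 0.63 turned to -0.76 and -0.33 over the sham library at 6 h, and for Gm26532 the log2 fold of -0.65 turned to 0.13. Gm26526, a noncoding RNA on chromosome 7, had 10.54 CPM in irradiated and 17.5 CPM in sham microglia at 1 week, below both sham libraries.

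Gm3164 belongs to a family of similar genes on chromosome 14. Each of the 8 members matched at least 71 other annotated genes, under a looser limit of identity and length than that used for copies above. It had 20.6 CPM in irradiated and 10.6 CPM in sham microglia at 1 week, a log2 fold of 0.95 (0.52 to 1.41). The other 7 had log2 folds of -0.04 to 0.54 at 1 week. Summed, because reads of such similar genes cannot be assigned with certainty, the 8 had 171 CPM in irradiated and 133 CPM in sham microglia at 1 week, a log2 fold of 0.36 (0.23 to 0.49), under the threshold. At 6 h the sum was 119 CPM in irradiated and 121 CPM in sham microglia.

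Among the 25 copies of named coding genes the calls ran mostly one way in each comparison. At 6 h, 9 of the 25 (36.0%) were higher in irradiated microglia and 0 lower, against 26 higher (11.3%) and 11 lower of the 230 other members. At 1 week, 0 were higher and 7 (28.0%) lower, against 11 higher and 5 lower of the others. Between the sham libraries, 2 were higher and 10 (40.0%) lower at 1 week, against 13 higher and 11 lower of the others. For the copies the median log2 fold was 0.35 at 6 h, it was -0.42 at 1 week and -0.15 from sham to sham, and that of the other members was -0.04, 0.07 and -0.05. Without the copies, the members lower at 1 week numbered 5 in place of 12, and those lower in the sham library at 1 week 11 in place of 21. Copies and other members were set apart after the folds had been seen, so these counts are descriptions.

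**Figure D4:**
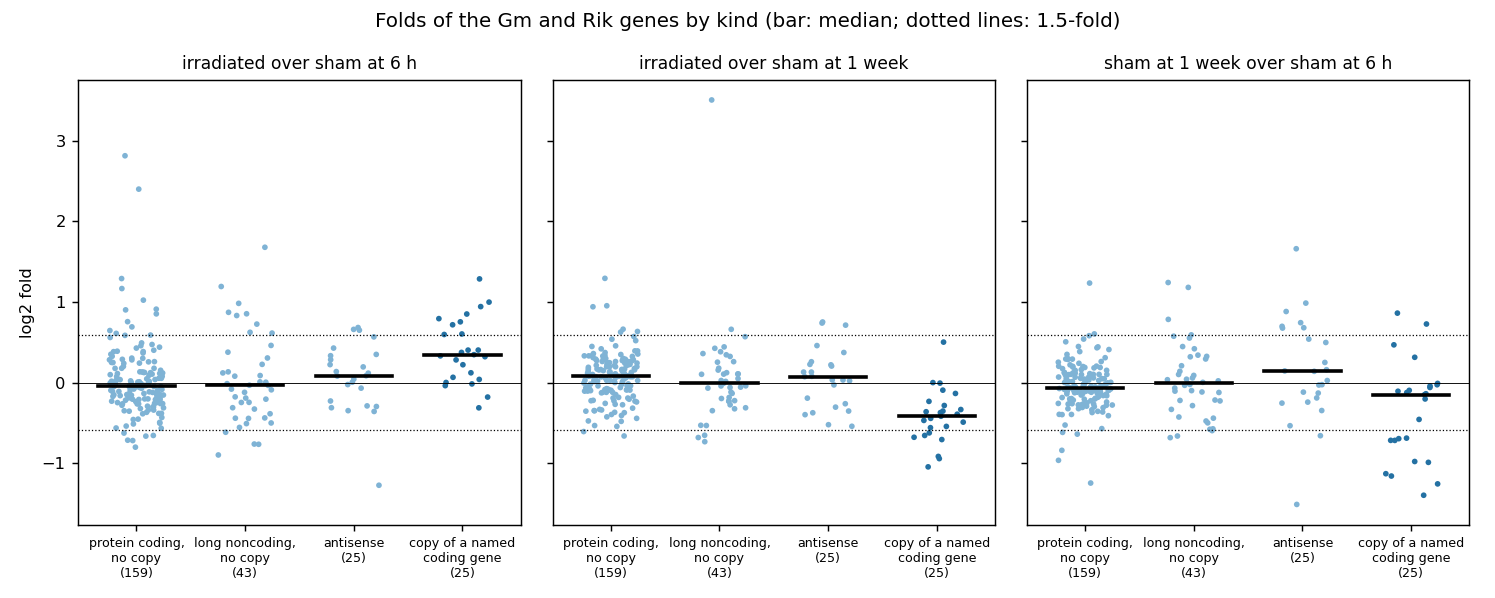
Log2 fold of the members by kind in the 3 comparisons; each point is 1 gene, the bar is the median, dotted lines mark 1.5-fold, and the number of genes stands in parentheses (3 members outside these kinds are not drawn). The median of the 25 copies is 0.35 at 6 h and -0.42 at 1 week, while the 159 other coding genes have -0.05 and 0.08, the 43 other noncoding genes -0.04 and -0.01, and the 25 antisense genes 0.09 and 0.07.

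The named genes that the copies match had smaller folds in the median at 6 h and at 1 week. In the 23 pairs whose named gene had at least 300 UMIs, the median log2 fold at 6 h was 0.37 for the copies and 0.07 for the named genes, and at 1 week -0.44 for the copies and -0.04 for the named genes. From sham to sham the medians were nearly equal, at -0.15 for the copies and -0.14 for the named genes. At least 1.5-fold higher at 6 h were 9 copies and 2 named genes (Ftl1 at 0.79 and Zfp991 at 0.76), and at least 1.5-fold lower at 1 week were 7 copies and 0 named genes. Zfp991 is the newer name of Gm13139, so this gene stands on the named side of 1 pair and is also 1 of the 255. The ribosomal protein genes as a class, of which 76 were measured, had 2 higher and 0 lower at 6 h and likewise 2 and 0 at 1 week, with medians of 0.09 and -0.13. Of the 2 ribosomal genes higher at each time, 1 was Rps27l, also on the list of p53 target genes below, with log2 folds of 1.96 and 1.18. Of the 23 named genes, 9 encode ribosomal proteins.

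Expressed per 100 UMIs of the named gene, the copies had a median of 15.9 UMIs in irradiated and 13.3 in sham microglia at 6 h, and 8.22 in irradiated and 9.29 in sham microglia at 1 week. The ratio was higher in irradiated than in sham microglia at 6 h in 19 of 23 pairs and lower at 1 week in 23 of 23. It was lowest of all libraries in the irradiated library at 1 week in 19 pairs and highest in the irradiated library at 6 h in 18. In 13 pairs both libraries at 1 week lay below both at 6 h. Library preparation and time cannot be told apart in this design.

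**Figure D5:**
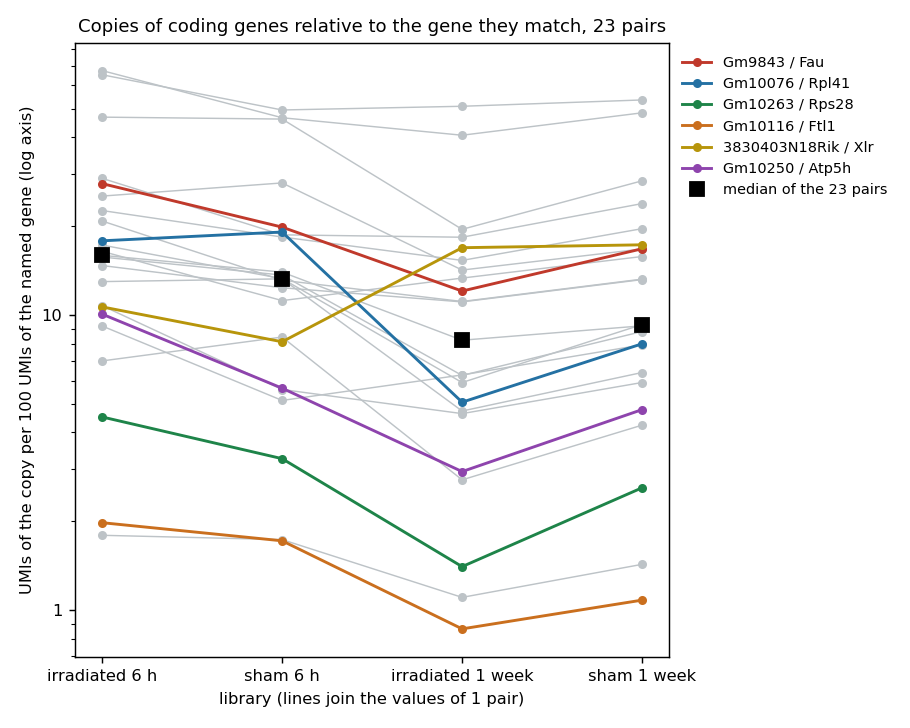
UMIs of each copy per 100 UMIs of the named gene it matches (log axis) in the 4 libraries, left to right irradiated and sham at 6 h, then irradiated and sham at 1 week; each line is 1 of 23 pairs and black squares are their medians. The medians are 15.9, 13.3, 8.22 and 9.29 in that order, while 3830403N18Rik over Xlr, with 10.7, 8.12, 16.9 and 17.3, is higher at 1 week than at 6 h.

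Gm9843, a processed pseudogene of Fau, which encodes a ubiquitin-like protein fused to ribosomal protein S30, showed the pattern with the most UMIs. It had 676 CPM in irradiated and 447 CPM in sham microglia at 6 h, and 265 CPM in irradiated and 418 CPM in sham microglia at 1 week. The log2 fold was 0.60 (0.54 to 0.66) at 6 h and -0.66 (-0.74 to -0.57) at 1 week, while Fau had 0.11 (0.08 to 0.14) and -0.18 (-0.21 to -0.15). Gm10076, a copy of the ribosomal protein gene Rpl41, was split by time: it had 440 CPM in irradiated and 445 CPM in sham microglia at 6 h, and 110 CPM in irradiated and 169 CPM in sham at 1 week. Its log2 fold between the sham libraries was -1.398 (-1.501 to -1.296), while Rpl41 had -0.14 (-0.17 to -0.11). Gm10263, a copy of the ribosomal protein gene Rps28, had 95.2 CPM in irradiated and 62.7 CPM in sham microglia at 6 h, and 22.1 CPM in irradiated and 45.7 CPM in sham at 1 week. Its log2 folds were 0.60 (0.44 to 0.76) and -1.05 (-1.33 to -0.76), and those of Rps28 were 0.13 and -0.16.

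How alike these sequences are is shown for Gm10263 and Gm10076. Of the 23 copies, 18 have annotated transcripts of 1 exon alone, while all 23 named genes are spliced. A whole reading frame of the named gene, from start to stop codon, could be laid without gaps on the copy with at most 10% of bases differing in 16 pairs, with 0 differing bases in 7 and up to 5 in 14. The other 7 pairs were not compared in this way. Either no whole reading frame of the named gene was found, or the annotated transcripts of the copy were shorter than it. Between Gm10263 (GRCm38, chr13:73317854-73318063, plus strand) and the spliced coding sequence of Rps28 (chr17:33823208-33824472, minus strand), 1 of 210 bases differs, given in capitals. Sequences are from the GENCODE transcripts.
Gm10263: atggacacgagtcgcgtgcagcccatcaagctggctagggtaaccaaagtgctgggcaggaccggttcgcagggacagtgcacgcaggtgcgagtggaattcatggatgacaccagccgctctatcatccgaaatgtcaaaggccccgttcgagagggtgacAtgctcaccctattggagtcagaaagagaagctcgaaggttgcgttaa
Rps28: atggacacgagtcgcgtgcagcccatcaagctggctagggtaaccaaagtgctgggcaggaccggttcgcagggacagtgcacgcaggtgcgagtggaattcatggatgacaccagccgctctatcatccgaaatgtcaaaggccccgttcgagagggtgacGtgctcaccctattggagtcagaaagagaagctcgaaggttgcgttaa
The 78 coding bases of Rpl41 (chr10:128548387-128548960, minus strand, spliced) recur without a difference in Gm10076 (chr14:105681869-105681946, plus strand), so 1 line serves for both.
Gm10076: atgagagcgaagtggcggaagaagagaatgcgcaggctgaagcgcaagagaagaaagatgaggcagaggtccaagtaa

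A read from such a stretch fits both places, and how the counting placed it is not given in the sources used here. The counts of the copies are therefore uncertain as to their gene. Gm9493, a copy of the ribosomal protein gene Rps7, had 354 CPM in irradiated and 215 CPM in sham microglia at 6 h, a log2 fold of 0.72, while Rps7 had 0.08. Gm10116 had 109 CPM in irradiated and 54.7 CPM in sham microglia at 6 h, a log2 fold of 1.00, and Ftl1, the ferritin light chain it matches, differed the same way. Gm10250, a copy of the ATP synthase gene Atp5h, had 21.2 CPM in irradiated and 12.2 CPM in sham at 6 h, and 6.63 CPM in irradiated and 10.6 CPM in sham at 1 week. Its ratio to Atp5h was 10.1 per 100 in irradiated and 5.65 in sham at 6 h, and 2.95 in irradiated and 4.78 in sham at 1 week.

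Between the sham libraries, in which time of sampling, age and library differed together, antisense members made up 7 of the 15 called higher. Of the 25 antisense members 7 (28.0%) were higher at 1 week and 2 (8%) lower, against 2.93% and 4.78% of all genes measured. 1700061E18Rik, antisense to Adtrp on chromosome 13, had 21.9 CPM in sham microglia at 1 week and 6.94 CPM in sham microglia at 6 h, with 16.7 CPM and 7.53 CPM in the irradiated libraries of the same times. Its log2 fold was 1.66 (1.22 to 2.11), and the libraries at 1 week were both above those at 6 h. Gm10138, antisense to Ivns1abp, had 104 CPM in sham at 1 week and 56.7 CPM in sham at 6 h, a log2 fold of 0.88 (0.71 to 1.05), while Ivns1abp had -0.17. A930007I19Rik and 2900060B14Rik, both antisense, had log2 folds of 0.99 and 0.74. Gm15523, antisense to Asb2, went the other way with 5.49 CPM in sham at 1 week and 15.6 CPM in sham at 6 h, a log2 fold of -1.51 (-2.12 to -0.95).

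Further members higher in the sham library at 1 week were Gm26522, Gm10382, Gm29367, 3830403N18Rik and Gm26532, with log2 folds of 0.78 to 1.24. Gm26522 lies opposite Ctsc, the protease cathepsin C, and had 33.8 CPM in sham at 1 week and 14.3 CPM in sham at 6 h, while Ctsc had a log2 fold of -0.12. Among members lower at 1 week, Gm10126, which the annotation did not match, had the largest fold, with 6.55 CPM in sham at 1 week and 19.6 CPM in sham at 6 h. Gm4951 had 6.72 CPM in sham at 1 week and 15.95 CPM in sham at 6 h. Its log2 fold at 6 h was 0.49, and it was 0.91, past 1.5-fold, when an interferon-led cluster was left out. That cluster held 59 irradiated and 253 sham cells at 6 h. Another cluster led by interferon genes, with 105 irradiated and 57 sham cells at 6 h, was kept. The value of 0.91 is therefore not that of cells without an interferon response. The copies Gm2000, Gm10053, Gm10020, Gm6563 and Gm8186 had log2 folds of -1.26 to -0.98. The pseudogenes Gm21092 and Gm4950 had log2 folds of -0.70 and -0.72, and Gm10036, which matches the ribosomal protein gene Rpl11, had 0.73. Because A930007I19Rik, Gm26522 and Gm29367 were higher in the later sham library, their log2 folds at 6 h of 0.68, 0.61 and 0.62 turned to -0.30, -0.63 and -0.56 over it.

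Of the 48 members with a newer name, 6 (12.5%) were higher and 3 (6.25%) lower at 6 h, where 8.92% and 8.99% of all genes measured were called, and 3 (6.25%) were higher and 0 lower at 1 week, against 3.99% and 3.13%. Rtraf (2700060E02Rik), a factor of RNA transcription and transport, had 160 CPM in irradiated and 175 CPM in sham microglia at 6 h, and 187 CPM in irradiated and 184 CPM in sham at 1 week. Atp5mpl (2010107E04Rik) had 166 CPM in irradiated and 165 CPM in sham at 6 h, and 161 CPM in irradiated and 158 CPM in sham at 1 week. Of the 159 coding members that are no copies, 14 (8.81%) were higher and 6 (3.77%) lower at 6 h, and 6 (3.77%) higher and 2 (1.26%) lower at 1 week, so the shares called higher were near those of all genes measured. The antisense RNA B930036N10Rik on chromosome 1 had 137 CPM in irradiated and 120 CPM in sham microglia at 6 h, and 173 CPM in irradiated and 169 CPM in sham at 1 week.

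Position and promoter sequence were also compared. A gene called higher lay within 50000 bases of 5 of the 26 members without copies called higher at 6 h (19.2%). The same held for 18.5% of all genes called higher and 15% of all genes measured. Gm26917 and Gm42418, among those 5, were each other's such neighbour. At 1 week it was 0 of 11 members, 6.86% of all genes called higher and 6.90% of all genes measured. The p53 response element, by which the main transcription factor of the DNA damage response binds DNA, was searched in RefSeq promoters of 300 bases (250 before and 50 after the start, GRCm38.p6), as a pattern of 20 bases with up to 3 mismatches, on both strands. It was found in 6.29% of 32851 promoters, each counted by itself, and in 5 of the 144 members that had one (3.47%). A member with several promoters was counted by the one with the fewest mismatches, so the shares of promoters and of members are not on an equal footing. With up to 4 mismatches it was found in 30.2% of the promoters and in 40 of the 144 (27.8%). Copies left out, 12 members called higher at 6 h and 6 at 1 week had a promoter. With up to 3 mismatches, 0 of 12 and 0 of 6 held the pattern. With up to 4 it was 3 of 12 and 1 of 6, and these numbers are too few to set against all promoters. Gm26870, B930041F14Rik, Gm13889, Gm26917 and Gm42418, also called higher, had no promoter among those searched. Known p53 target genes themselves, a list of which 31 were measured at 6 h and 30 at 1 week, had 24 higher and 1 lower at 6 h and 20 higher and 1 lower at 1 week. Of named long noncoding RNAs, 3 of 16 (18.8%) were higher and 0 lower at 6 h, beside the 8.92% and 8.99% of all genes, and 1 of 15 higher and 2 lower at 1 week. Pvt1, 1 of the 3, had 42.1 CPM in irradiated and 4.97 CPM in sham microglia at 6 h.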

How the data were processed

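Per gene and barcode, the 4 deposited matrices give raw UMI counts, with no normalization. They were made with Cell Ranger 2.0 on mm10, per the submitters' processing notes. The counting annotation, its strand setting and its treatment of reads with several matches are not stated in the labels or files. The members and gene lists were chosen with earlier results of these data known.

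Barcodes (8486, total depth 5706955 to 9760928 UMIs per library) were kept from 1000 UMIs and 500 genes, and at most 10% mitochondrial UMIs. That left 8369, while the design text states 8095 cells. They were clustered together (scanpy 1.11.5, 2000 variable genes, 30 components, 15 neighbours, leidenalg 0.10.2 at resolution 1). Clusters with 7 of 9 microglia markers from 50 CPM that were not marked by another class were summed as microglia-like (8246 cells). An unnamed cluster with neural genes (67 cells irradiated and 13 sham at 6 h, 7 irradiated and 3 sham at 1 week), a border macrophage-like and a monocyte-like cluster were left out. A cluster with the monocyte gene Plac8 among its leading genes, called the interferon-led cluster here, was kept and left out in an alternative. Another cluster led by interferon genes such as Rsad2 and Ifit1 was kept in that alternative too. Doublets were not called, and leaving out cells above 2 times the median UMIs was an alternative.

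UMIs were scaled to the total of these cells (CPM). Intervals are 95% (exact conditional binomial for log2 folds, Clopper-Pearson for shares) and hold counting error alone. No p-value is given, as each group is 1 library. A gene was measured from 50 UMIs over both libraries and called from 1.5-fold. For shares of cells, each cell was thinned to 2000 UMIs, leaving out 50 shallower cells irradiated and 84 sham at 6 h, and 102 irradiated and 189 sham at 1 week. As a gauge of free RNA, the microglial gene P2ry12 had a UMI in 3 of 16 monocyte-like cells (18.8%, median depth 2683.5 UMIs). Copies were found with blastn 2.17.0+ among GENCODE vM21 transcripts. The calculation was tested on simulated counts with counting error alone, at the observed means and library sizes. The simulation left out added spread over cells and between libraries. Genes named are those of highest mean CPM, the 10 largest folds each way per comparison, those outside both sham libraries at both times, those opposite at 6 h and 1 week, and pseudogenes differing between sham libraries. Alternatives were other cells, cell filters, scalings (edgeR 4.0.16 TMM and median-of-ratios), UMI floors, a 2-fold threshold, the other sham library, and members without copies.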

Additional observations from a re-analysis of the deposited data

Results flagged for a closer look

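For 5 of the 255 genes the fold passed 1.5-fold in opposite directions at the 2 times, beside 1.16% of all genes measured. The difference between the times was not tested, because each group is 1 library. Gm13889 had a log2 fold of 2.40 at 6 h and -0.61 at 1 week. Gm6133, a coding gene on chromosome 18 whose transcript is 93.1% identical to the ribosomal protein gene Rpl17 over 64.1% of its length, too little to count as a copy, had 0.90 at 6 h and -0.66 at 1 week, with 131 CPM in irradiated and 70.0 CPM in sham microglia at 6 h, and 62.8 CPM in irradiated and 99.5 CPM in sham at 1 week. The copies Gm9843, Gm10263 and Gm10250 had 0.60, 0.60 and 0.79 at 6 h, and -0.66, -1.05 and -0.68 at 1 week.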

How the results depend on the processing

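No paired analysis was possible because each group is 1 library and the libraries carry no replicate numbers that pair them. In the 3 comparisons, the counts of members called stayed within 1.5 times their reported value under all kept cells, all barcodes, the stricter cell filter, the scalings (which moved the median of all genes by less than 0.1), the floor of 20 UMIs or none, without the interferon-led cluster and without the deepest cells; the last 2 settings and the one without copies were chosen after seeing the data. With a floor of 200 UMIs, 5 members were higher at 1 week and 3 lay above both sham libraries. At 2-fold, 8 were higher and 1 lower at 6 h, 2 higher and 1 lower at 1 week, and 4 higher and 7 lower between the sham libraries, while 7 lay above and 1 below both sham libraries at 6 h, and 2 above and 1 below at 1 week. Against the sham library of the other time, 21 were lower at 6 h, and 17 higher and 29 lower at 1 week. Among named members past 1.5-fold, the log2 folds that turned sign with that library were -0.3031 for A930007I19Rik, -0.6273 for Gm26522 and -0.557 for Gm29367 at 6 h, and 0.1301 for Gm26532, -0.7601 for Gm15523 and -0.3304 for 6030458C11Rik at 1 week. Without copies, 5 were lower at 1 week, 11 lower in the later sham library and 2 below both sham libraries at 1 week, by the members left out. The members took 1.205% of UMIs in irradiated microglia at 6 h with all barcodes. Without Gm9843 they took 1.129% in irradiated and 1.029% in sham at 6 h, and 0.9745% in irradiated and 0.9772% in sham at 1 week. Without thinning, the median share of cells with a UMI over the named members was 10.44% in irradiated and 8.194% in sham at 6 h, and 8.041% in irradiated and 8.82% in sham at 1 week. Thinned it was 5.816% in irradiated and 5.827% in sham at 6 h, and 4.958% in irradiated and 5.047% in sham at 1 week. The thinned medians at 6 h were thus nearly equal, while shares of single members, such as Gm13889, still differed at 6 h after thinning. For the other moves the cause was not tested. With 1 library a group, the spread between mice is unknown, and a member of 50 UMIs has a wide counting interval.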
